A study of Mus musculus with 12 samples.

Results

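A set of 9 genes of ion and bile acid transport in surface colonocytes, the absorptive cells that line the colon, were followed in mouse colon RNA. They were chosen by name, with earlier results of these data known, from the 991 features that the deposited lists hold. Car4, Slc26a3, Slc4a4, Slc26a2, Slc20a1, Trpm6 and Slc51b were among the 912 features listed for Control and DSS, and Car1 and Scnn1g were among the 95 listed for BXD_H. The 8 features of BXD_L included none of them. The study has 12 libraries, 3 in each of 4 groups, and asks what a colitis course and an herbal decoction change in the colon. Control mice were given ddH2O. DSS mice went through 3 cycles of 5 days on 2.5% dextran sulfate sodium (DSS), a sulfated polysaccharide that injures the colon epithelium, and 5 days on water, and their treatment label also names ddH2O. BXD_L and BXD_H mice went through the same cycles while receiving Banxia Xiexin Decoction (BXD), a mixture of herbs, at 7.60 and 15.2 g/kg/day. The sources used here give no strain, sex or age and do not say whether a library is 1 mouse. The p-values below thus rest on the spread among libraries, which could be technical.

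Surface colonocytes take up sodium chloride and water from the gut content. Carbonic anhydrases supply bicarbonate and protons inside the cell, apical exchangers trade the bicarbonate for luminal chloride and the protons for sodium, and in the distal colon the epithelial sodium channel adds sodium uptake under aldosterone. The same cells take up sulfate, phosphate and magnesium, and they pass bile acids on to the blood through a basolateral transporter of 2 subunits.

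All values are FPKM, fragments per kilobase and per 1000000 fragments of the library, so levels of different genes can be set side by side per length. Each file held a selection of features, and no source used here gives the rule of selection. In the list of Control and DSS the libraries of the groups did not overlap for 95.2% of the features, and 17.8% of all features were lower in DSS without overlap. Of 576 features that passed a filter on low values, 99.1% were called by limma (adjusted p under 0.05), 20% as lower and 79.2% as higher in DSS. Log2 changes are of FPKM + 1, DSS minus Control. A call therefore separates a member from hardly any other listed feature, and the sizes, the directions and the single libraries carry the description below. With 1 library left out, 469 to 547 features were still called, of 500 to 565 tested. A call that holds there is thus no separate support for a member. The spacing of low values implied 14.4 to 19.2 times 1000000 fragments per Control or DSS library and 12.4 to 18.2 times 1000000 per BXD_H library. The description text of Control replicate 3 names the DSS course and that of DSS replicate 3 names BXD, against their titles and treatment labels, and the groups here follow the titles.

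Annotated RefSeq starts of the genes are shown first, as a description of sequence, and their part in any change was not tested. RefSeq windows of 300 bases (GRCm38.p6, 250 before and 50 after each start) were found for 7 of the 9 members, 9 windows in all. These 7 are Car4, Slc26a3, Slc4a4, Slc20a1, Trpm6, Slc51b and Scnn1g, so they are not the 7 listed for Control and DSS. Shown, for Trpm6, Car4, Slc26a3 and Slc51b, are the bases before the start that no annotated exon covers. Trpm6 and Car4 are the members with the largest changes, and Slc51b is the bile acid gene. The Slc26a3 window matches 3 of the motifs searched, as does the first window of Slc20a1, which is not shown. Each is written 5′ to 3′ on the gene's strand, and capitals mark matches to the searched motifs on either strand.
Trpm6, chr19:18749480-18749729, plus strand: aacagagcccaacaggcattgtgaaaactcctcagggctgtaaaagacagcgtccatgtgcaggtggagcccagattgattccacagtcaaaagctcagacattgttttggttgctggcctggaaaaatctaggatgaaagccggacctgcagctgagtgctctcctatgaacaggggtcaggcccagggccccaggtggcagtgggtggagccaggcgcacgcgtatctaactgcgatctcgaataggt
Car4, chr11:84957504-84957753, plus strand: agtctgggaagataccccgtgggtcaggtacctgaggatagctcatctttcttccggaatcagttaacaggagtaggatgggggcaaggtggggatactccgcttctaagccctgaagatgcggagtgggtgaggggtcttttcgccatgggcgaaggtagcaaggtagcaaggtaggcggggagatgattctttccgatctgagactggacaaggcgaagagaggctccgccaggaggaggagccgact
Slc26a3, chr12:31437969-31438216, plus strand: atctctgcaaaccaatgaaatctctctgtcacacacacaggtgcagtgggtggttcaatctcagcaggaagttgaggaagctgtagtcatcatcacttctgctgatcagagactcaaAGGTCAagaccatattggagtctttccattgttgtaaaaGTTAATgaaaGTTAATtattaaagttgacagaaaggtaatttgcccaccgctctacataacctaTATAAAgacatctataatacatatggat
Slc51b, chr9:65422956-65423023, minus strand: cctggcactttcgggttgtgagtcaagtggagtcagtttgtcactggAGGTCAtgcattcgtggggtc

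Searched were AGGTCA (a hexamer bound by nuclear receptors), GTTAAT (part of the HNF1 site), TATAAA (the TATA box), TTTATNG (CDX2) and CAAAGTCCA (HNF4A). AGGTCA was found in 5 of the 9 windows, against 16.3% of 32851 RefSeq windows of the same length. Distances are those of the first base of a match from the RefSeq start of its window. Slc26a3 has AGGTCA 133 bases before that start, Slc51b 203 bases before, Slc20a1 in both of its windows and Slc4a4 in 1 of its 2, the second. The windows of Slc26a3 (from 31437969), the second of Slc20a1 (from 129206846) and the second of Slc4a4 (from 89027716) lie inside the gene spans given below. Their starts are thus internal to those spans. GTTAAT was found in 1 of the 9 windows (7.10% of all), at 94 and 84 bases before that internal start of Slc26a3. TATAAA was found in 3 (13.6% of all), at 30 bases before the start in Slc26a3, 1 base before it in Slc20a1 and after it in Car4. TTTATNG was found in 2 (10.9% of all), both overlapping the TATAAA of Slc20a1 and Car4, and CAAAGTCCA in 0 (0.475% of all). The printed stretches of Trpm6 and Car4 hold none of the 5. The GC content of the windows ran from 39.3% in Slc26a3 to 80% in the first window of Slc4a4, around a median of 52.7% over all windows. A match is a description of the letters and shows no binding.

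DSS libraries held less RNA of all 7 members than Control libraries, with group means 1.90-fold (Slc4a4) to 4.35-fold (Trpm6) lower. In each of the 7 every DSS library lay below every Control library (17.8% of all 912 features), and all 7 fell in limma's test (20% of the 576 tested). The median log2 change of the 7 was −1.48, beside −1.01 over the 115 features called lower and 0.96 over all 576 tested. The 115 include the 7, which were chosen with earlier results of these data known, so these medians are a description only. Without the 2 libraries of conflicting description, 4 of the 7 passed: Car4 (log2 change −2.34), Trpm6 (−2.31), Slc51b (−1.65) and Slc26a3 (−1.63). That fit called 409 of the 476 features it tested, 60 of them lower. Under the groups that the descriptions name, 0 of the 7 passed in limma, and 0 had an unadjusted p under 0.05. Centring each library on its listed median lowers the log2 changes by 0.65, so falls deepen and rises shrink by construction. With this centring and Control and DSS alone in the fit, 113 of 572 features were called higher and 117 lower, with all 7 members among the falls, against 455 higher and 115 lower in the same fit without centring. In bulk tissue, fewer colonocytes and less of a transcript per colonocyte cannot be told apart. No marker list for the surface colonocyte (0 of 10 genes listed) or for epithelium in general (0 of 12) had a member in the Control and DSS files, so the label of surface colonocyte genes was not checked against other markers of that cell.

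**Figure D1:**
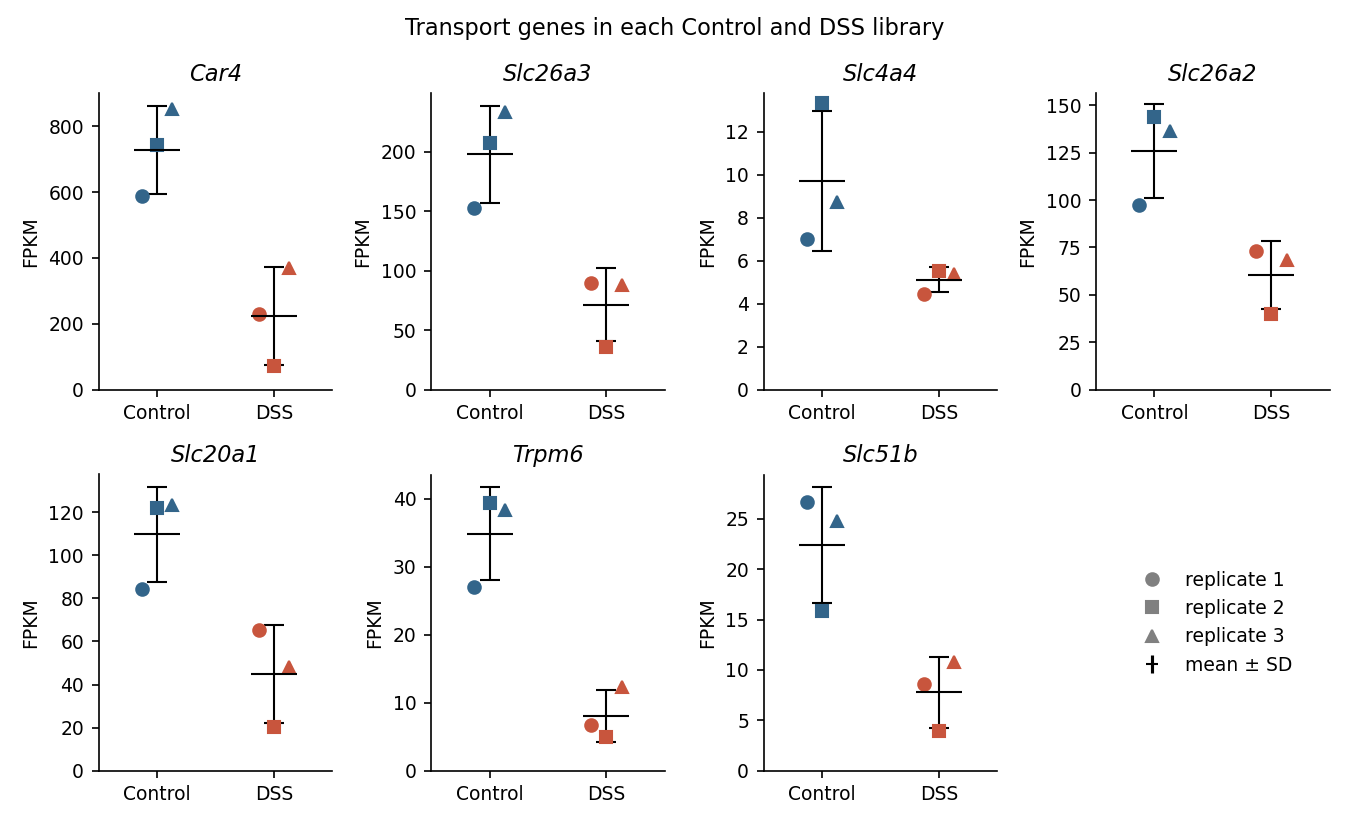
FPKM of the 7 genes in each Control (blue) and DSS (red) library, with marker shapes for the replicate and black lines for the mean ± SD of 3 libraries; each panel has its own axis from 0. All 3 DSS libraries lie below all 3 Control libraries in every panel, and the square of DSS replicate 2 is the lowest in all but Slc4a4.

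Among the genes of bicarbonate and chloride handling, Car4 encodes a carbonic anhydrase anchored at the outer face of the apical membrane (ENSMUSG00000000805, chromosome 11, 84957786 to 84966044, mm10). It was the most abundant of the 7 and ranked 5 of 912 by its Control mean. The Control libraries read 589, 743 and 852 FPKM for replicates 1 to 3, and the DSS libraries 230.1, 72.9 and 369 FPKM. The DSS libraries thus spread from 10.0% to 50.7% of the Control mean. The mean went from 728 ± 132 to 224 ± 148 FPKM (SD, n = 3 in each group, as below), and limma gave a log2 change of −1.96 (SE 0.56, adjusted p = 0.00947). Without DSS replicate 2 the change was −1.30, still past the threshold.

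Slc26a3, also called DRA, swaps luminal chloride for cellular bicarbonate at the apical membrane (ENSMUSG00000001225, chromosome 12, 31390871 to 31473917). Its Control libraries stood at 153, 208 and 233 FPKM and its DSS libraries at 89.98, 35.9 and 88.1 FPKM. Replicates 1 and 3 of DSS were nearly equal, and replicate 2 kept 18.1% of the Control mean against 45.5% and 44.5% in the others. The log2 change was −1.55 (SE 0.44, limma adjusted p = 0.00873), from a mean of 198 ± 41.1 FPKM to one of 71.3 ± 30.7 FPKM.

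Slc4a4, the electrogenic sodium-bicarbonate cotransporter NBCe1, brings bicarbonate into the cell across the basolateral membrane (ENSMUSG00000060961, chromosome 5, 88886818 to 89239653). It was the least abundant of the 7 in Control, at 7.02, 13.3 and 8.73 FPKM, and stood at 4.44, 5.53 and 5.37 FPKM in DSS. Here the DSS libraries were close together (coefficient of variation 11.5%) and the Control libraries spread more (33.7%), the reverse of the other 6 members. The log2 change of −0.77 (SE 0.28, limma adjusted p = 0.0233) was the smallest of the 7. It did not pass without Control replicate 2 (−0.54, adjusted p = 0.0838) or without DSS replicate 1 (−0.69, adjusted p = 0.0742).

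Slc26a2 belongs to the same exchanger family as Slc26a3 and carries sulfate (ENSMUSG00000034320, chromosome 18, 61192919 to 61211612). It read 97.5, 144 and 136 FPKM in Control and 73.1, 39.8 and 68.6 FPKM in DSS, so the gap between the lowest Control and the highest DSS library was 1.33-fold. Its mean went from 126 ± 24.9 to 60.5 ± 18.1 FPKM, and the log2 change in limma was −1.07 (SE 0.37, adjusted p = 0.0196). That call was lost without Control replicate 2 (−0.97, adjusted p = 0.0705) or without Control replicate 3 (−1.005, adjusted p = 0.0661).

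Slc20a1, the sodium-phosphate cotransporter PiT-1, had nearly the same level as Slc26a2 (ENSMUSG00000027397, chromosome 2, 129198764 to 129211616). Control libraries stood at 84.3, 122 and 123 FPKM and DSS libraries at 65.5, 20.5 and 48.3 FPKM. DSS replicate 1 kept 59.6% of the Control mean, the highest share of any member in any DSS library, and replicate 2 kept 18.7%. The log2 change was −1.40 (SE 0.46, limma adjusted p = 0.0157). It was −0.93 without DSS replicate 2, still past the threshold, and −1.32 without Control replicate 2, where it was not (adjusted p = 0.0532).

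Trpm6 encodes an epithelial channel for magnesium uptake (ENSMUSG00000024727, chromosome 19, 18749983 to 18892511). It had the largest change of the 7, the 10th lowest of the 576 tested features. Control libraries read 27.0, 39.3 and 38.3 FPKM and DSS libraries 6.78, 4.91 and 12.4 FPKM, so that the lowest Control library exceeded the highest DSS library 2.19-fold. The mean went from 34.9 ± 6.80 to 8.01 ± 3.87 FPKM, and limma gave a log2 change of −2.06 (SE 0.36, adjusted p = 0.0033). Leaving out any single library gave −2.38 to −1.80, past the threshold each time, as were most of all features tested in those fits.

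Slc51b encodes OST beta, the small subunit that pairs with OST alpha (Slc51a) to export bile acids across the basolateral membrane (ENSMUSG00000053862, chromosome 9, 65412714 to 65422955). It stood at 26.7, 15.8 and 24.8 FPKM in Control and 8.60, 3.90 and 10.8 FPKM in DSS. Unlike the other 6 members, it was lowest in Control replicate 2 and highest in Control replicate 1. Its mean went from 22.4 ± 5.78 to 7.77 ± 3.53 FPKM, with a log2 change of −1.48 in limma (SE 0.39, adjusted p = 0.00677). The gene is short, and 187 to 285 fragments lay behind each Control value and 46 to 147 behind each DSS value, against at least 630 per library for each of the other 6. Slc51a was not among the listed features, so the 2 subunits could not be set side by side.

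**Figure D2:**
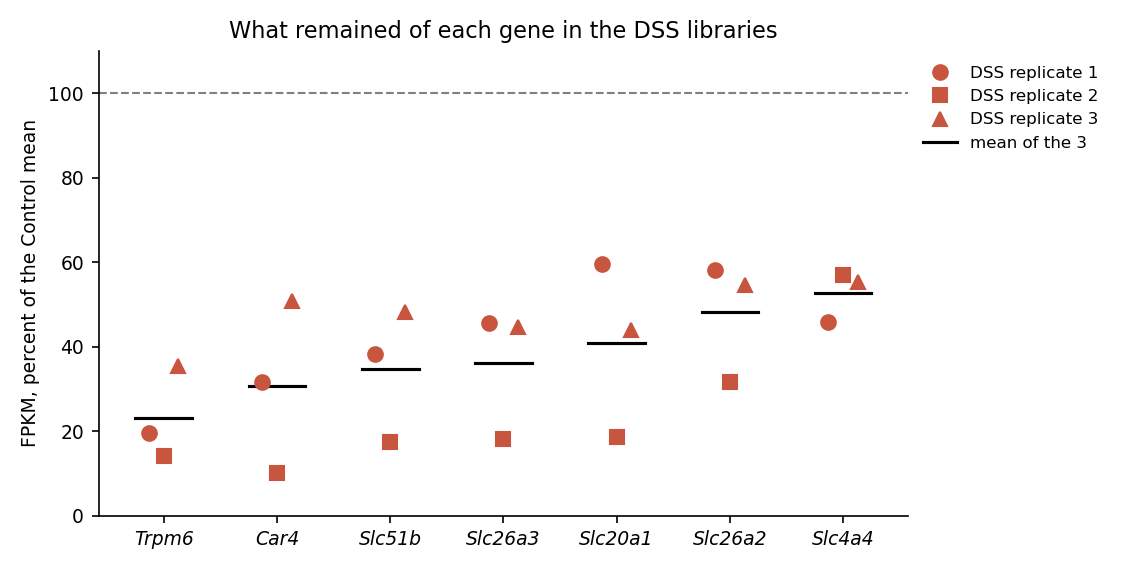
FPKM of each DSS library (red; shape for the replicate) as a percentage of the gene's Control mean (dashed line at 100), with a black line for the mean of the 3 libraries; genes are ordered by that mean. Trpm6 kept 23.0% and Slc4a4 52.8% of the Control mean, and DSS replicate 2 is the lowest point for 6 of the 7.

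By level, the Control libraries put Car4 first, then Slc26a3, Slc26a2, Slc20a1, Trpm6, Slc51b and Slc4a4. The ranges of Slc26a2 and Slc20a1 overlapped, and those of all other neighbours in that order did not. In DSS the order of the means was the same, but neighbouring ranges overlapped except between Slc20a1 and Trpm6. Car4 in DSS replicate 2, at 72.9 FPKM, lay below Slc26a3 in DSS replicates 1 and 3.

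**Figure D3:**
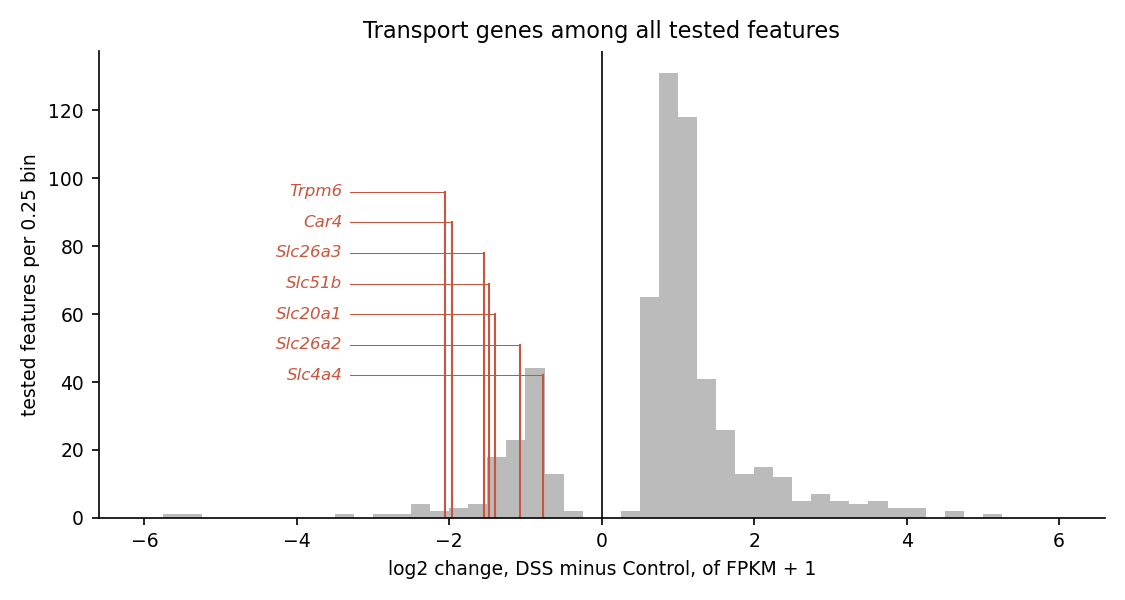
Histogram of the log2 change of FPKM + 1 (DSS minus Control, x axis) over 576 tested features (y axis, features per bin), with red lines at the 7 transport genes. Few features lie near 0, and the 7 genes run from −2.06 (Trpm6) to −0.77 (Slc4a4) on the side that holds 20% of the calls.

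Over both groups together, the members' deviations from the group means were alike for most members, less so for Slc51b and not for Slc4a4. Within Control, Slc51b also departed, highest in replicate 1 (26.7 FPKM) and lowest in replicate 2 (15.8 FPKM). Slc4a4 was lowest in Control replicate 1 like most members, and departed in DSS, where replicate 2 was its highest. Over the 6 libraries, after the group means were removed, Pearson's r with the mean log2 profile of the 7 was 0.98 for Car4 and Slc26a3, 0.94 for Slc26a2, 0.92 for Slc20a1, 0.87 for Trpm6 and 0.72 for Slc51b. For Slc4a4 it was 0.083. Each member is part of that mean, and all values share libraries and scaling, so these are descriptions over 6 libraries. Between pairs of members, r ran from −0.58 (Slc4a4 and Slc51b) to 0.97 (Slc26a3 and Slc20a1), with a median of 0.70. Slc51b had an r of 0.50 with Slc26a2, 0.54 with Trpm6 and 0.81 with Car4. The lowest DSS library was replicate 2 for 6 of 7 members, and the same held for 71 of the 108 other features called lower (65.7%). Likewise Control replicate 1 was the lowest Control library for 6 of 7 members and for 70 of those 108 (64.8%).

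For ratios between members within a library, the groups did not overlap for 5 of the 21 ratios (23.8%), close to the 23.4% over all 6555 pairs of features called lower, so the values that follow are a description and set the members apart from no other features. Trpm6 was in 4 of those 5. The ratio of Slc26a2 to Trpm6 was 3.61 ± 0.0442 in Control and 8.15 ± 2.61 in DSS, that of Slc20a1 to Trpm6 3.15 ± 0.0634 and 5.91 ± 3.24, and that of Slc26a3 to Trpm6 5.68 ± 0.408 and 9.24 ± 3.49. The fifth ratio compared the exchangers Slc26a3 and Slc26a2, at 1.57 ± 0.132 in Control and 1.14 ± 0.207 in DSS. The ratio of Slc26a3 to Slc51b averaged 9.42 ± 3.69 in Control and 9.27 ± 1.16 in DSS, with overlapping groups.

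Of 5 listed features whose deviations from the group means were most like the members' mean profile, 4 also fell. They were Akr1c14, an aldo-keto reductase (r = 0.998, log2 change −0.90), H2-Q2, a class I histocompatibility gene (r = 0.988, −0.96), 5430427M07Rik (r = 0.985, −2.39) and Abat, the GABA aminotransferase (r = 0.983, −0.94). The fifth, the immunoglobulin segment Ighv1-4 (r = 0.98), rose by 1.60. These r are over 6 libraries and were picked as the 5 highest of all tested features that are no member. H2-Q2 and Ighv1-4 have near-identical relatives that can share reads, and 5430427M07Rik is annotated as antisense, so its value may hold reads of the gene on the other strand, as no strand setting is known.

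Of 56 other genes of colonic ion, water and bile acid transport, 5 were listed for Control and DSS and tested, 4 of which fell and 1 rose. Of all 576 features tested, 20% were called lower and 79.2% higher. Sgk1, a kinase that raises sodium channel activity, stood at 50.3, 61.9 and 70.99 FPKM in Control and 34.9, 23.4 and 24.6 FPKM in DSS (log2 change −1.12, limma adjusted p = 0.00929). Kcne3, a subunit of the basolateral potassium channel, went from 108 ± 20.6 to 50.1 ± 5.98 FPKM (−1.08). Slc34a2, another sodium-phosphate cotransporter, went from 24.8 ± 6.81 to 12.6 ± 2.57 FPKM (−0.91). Fabp6, the ileal bile acid binding protein, fell by 0.83 on the log2 scale and rested on 13 to 44 fragments per library. All 4 were lower in each DSS library than in any Control library, as were 17.8% of all 912 listed features. Slc34a2 did not pass without Control replicate 2 or 3 or DSS replicate 1 or 3 (−0.87 to −0.73, adjusted p = 0.0592 to 0.0826), nor Kcne3 without Control replicate 3 (−0.93, adjusted p = 0.0527). None of the 4 passed without the 2 libraries of conflicting description (−0.94 to −0.62, adjusted p = 0.0828 to 0.183).

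The single rise was Clca4b, of the family of calcium-activated chloride channel regulators. It read 5.03, 4.97 and 8.10 FPKM in Control and 46.3, 185 and 91.6 FPKM in DSS (log2 change 3.76, SE 0.49, limma adjusted p = 0.00133). The highest library was DSS replicate 2, in which 6 of the 7 members were lowest. Clca genes lie in a cluster of similar copies, so reads could be split between them. Of the 56 genes, Aqp8, Slc9a3, Scnn1a, Scnn1b, Slc51a, Cftr and other genes were not in these lists and were not analysed here.

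Markers of other cells were higher in DSS, as were 79.2% of all features tested. Of 12 fibroblast and matrix markers 10 were listed and tested, and all 10 rose; their summed FPKM was 174 to 210 in Control and 491 to 912 in DSS. All 8 listed of 13 macrophage and neutrophil markers rose (sums 17.3 to 23.0 and 46.2 to 89.8 FPKM), as did the 5 listed of 10 T cell markers (8.44 to 11.5 and 20.97 to 29.7 FPKM). All 6 listed of 13 B and plasma cell markers rose (4937 to 6087 and 11505 to 17460 FPKM), and so did the 3 listed of 7 regenerating epithelium markers, Plet1, Anxa8 and Cldn1 (21.1 to 41.9 and 136 to 211 FPKM). With the centring above, 9 of the 10 fibroblast and matrix, 2 of the 8 macrophage and neutrophil, 1 of the 5 T cell, 4 of the 6 B and plasma cell and all 3 regenerating epithelium markers were still called higher, beside 19.8% of all 572 features. Among those no longer called were Fcgr1 (log2 change 0.38, limma adjusted p = 0.058), Cd68 (0.47, adjusted p = 0.128), Mmp9 (0.67, adjusted p = 0.147) and Cd3g (0.09, adjusted p = 0.653). DSS replicate 2, lowest for 6 members, had the highest fibroblast sum (912 against 494 and 491 FPKM) and the highest macrophage and neutrophil sum (89.8 against 60.5 and 46.2 FPKM). The regenerating epithelium sum was also highest there (211 against 136 and 190 FPKM). Of its genes, Anxa8 (95.2, 157 and 104 FPKM in DSS replicates 1 to 3) and Cldn1 (4.11, 4.84 and 4.51 FPKM) peaked in replicate 2. Plet1 (36.2, 48.4 and 81.5 FPKM) peaked in replicate 3. In DSS replicates 1 to 3 the T cell sum was 29.7, 21.9 and 20.97 FPKM. The B and plasma cell sum was 17460, 14223 and 11505 FPKM, so both of these were highest in replicate 1. The part of these cells in the fall of the members was not tested.

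Among other epithelial lists, 2 of 3 listed crypt stem cell markers fell, Ascl2 (log2 change −1.38) and Axin2 (−0.94), and Prom1 rose (1.17; 0.52 with adjusted p = 0.141 in limma after centring), of 7 genes in the list. The single listed goblet cell marker of 8, Retnlb, fell, with overlapping groups. In the DSS libraries Ascl2 rested on 21 to 23 fragments and Retnlb on 14 to 55. Fabp6 was the single listed gene of 9 small intestine markers. Listed features made up 3.57% of the fragments in each Control library and 4.26 to 5.40% in the DSS libraries, immunoglobulin genes 0.562 to 0.744% and 1.38 to 2.17%.

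**Figure D4:**
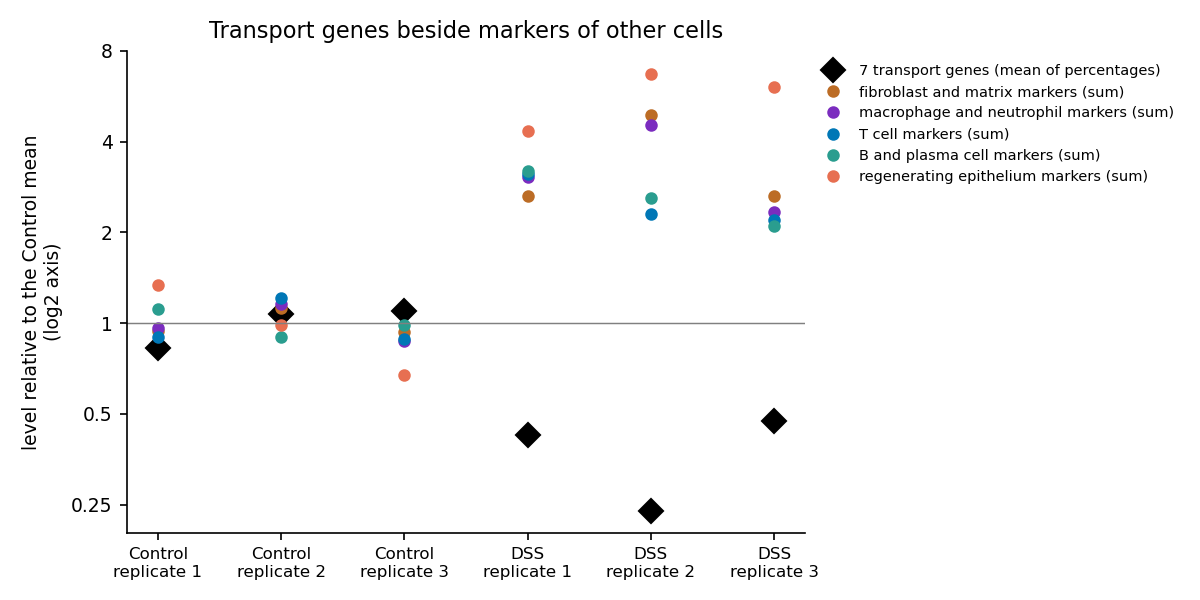
For each library (x axis), the 7 transport genes (black diamonds, mean of each gene's percentage of its Control mean) and the summed FPKM of marker lists (coloured circles), both relative to their Control mean on a log2 axis. The transport genes stand at 83.0, 108 and 109% of the Control mean in Control replicates 1 to 3 and at 42.6, 23.9 and 47.5% in DSS replicates 1 to 3, while all 5 marker sums rise above 1 in DSS.

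Car1 and Scnn1g were listed for BXD_H, and none of the 9 members was among the 19 features listed for both DSS and BXD_H, so no member could be compared between those groups. Car1, the cytosolic carbonic anhydrase I of the colon epithelium (ENSMUSG00000027556, chromosome 3, 14766216 to 14808368), stood at 373, 455 and 376 FPKM, a mean of 402 ± 46.6 (SD, n = 3). It ranked 1, 2 and 2 of the 95 listed features in the BXD_H libraries, whose medians were 1.73, 2.15 and 3.26 FPKM. Scnn1g, the gamma subunit of the epithelial sodium channel (ENSMUSG00000000216, chromosome 7, 121734479 to 121768475), stood at 1.34, 1.93 and 2.53 FPKM, from 69 to 105 fragments per library. The coefficient of variation over the BXD_H libraries was 11.6% for Car1 and 30.8% for Scnn1g. The intestinal calcium channel Trpv6, from the list of other transport genes, was also listed there, at 2.45, 1.30 and 1.41 FPKM. Whether these levels differ from those of DSS or Control mice was not analysed here, since those libraries list none of the 3 genes.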

How the data were processed

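Colon RNA was extracted with TRIzol and sequenced after a Nebnext ultra-RNA preparation, as the labels' protocols say. The build mm10 and the tools bcl2fastq, FastQC and fastp (no versions) come from the submitters' processing notes. No source used here gives the aligner, the counter, the strand setting or the annotation. Per the file headers, each deposited file holds FPKM of 1 library, for a selection of features.

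Of 991 features, 981 matched GENCODE release M21 (GRCm38, the build of mm10) by identifier, which gave symbols, coordinates (1-based) and exon lengths. The tests used log2(FPKM + 1) in limma 3.58.1 in R 4.3.3, with the 4 groups as factor levels, each feature on the libraries that list it, and a trended spread. The added 1 FPKM understates log2 changes of low genes. Features with FPKM of at least 1 in 3 libraries were tested, two-sided, with Benjamini-Hochberg adjustment over 576 features and a threshold of 0.05. All 7 members listed for Control and DSS passed the filter. The fit was tested on simulated data.

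Library totals were found by scanning 5 to 30 times 1000000 fragments for the lowest total at which FPKM times exon length gave whole fragments (within 0.2) in genes under 1200 bases, which held for 88.2 to 94.96% of 17 to 120 genes. They assume that the annotated exon length was the one used. BXD_L had too few such genes. Libraries of Control and DSS shared at most 25 equal values of 912.

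The members and gene lists were chosen with earlier results of these data known. All 9 members are named, with up to 4 genes of each list by smallest adjusted p and the 5 features with the most similar deviations from group means. Aqp8, Slc9a3, Scnn1a, Scnn1b, Slc51a and Cftr are named as genes of the list without values. Replicate numbers did not pair libraries, as the closing section gives. Alternatives covered the pseudocount, the filter, the libraries in the fit, centring, the trend, a replicate block, the conflicting descriptions and leaving out each library.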

Additional observations from a re-analysis of the deposited data

Results flagged for a closer look

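Values outside the comparison of DSS with Control were present for 3 transport genes listed for BXD_H alone, above what 3 fragments would give in a library. Car1 averaged 402 FPKM, where 3 fragments would be at most 0.194 FPKM. Scnn1g averaged 1.93 FPKM, against at most 0.0808 FPKM. Trpv6 averaged 1.72 FPKM, against at most 0.0614 FPKM. These limits cover counting error only, and no control library lists the 3 genes.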

How the results depend on the processing

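All 7 members stayed lower in DSS under all 16 alternatives run. For each of them every DSS library lay below every Control library, so only regrouping by the descriptions could have reversed a direction. The 7 calls held with a pseudocount of 0.1 or 0.01, without the low-value filter, with FPKM of at least 1 in 6 libraries, with Control and DSS alone in the fit, and without the trend. They also held with libraries centred on their listed median in a fit of Control and DSS. That centring lowers every log2 change by 0.65, so the falls there deepened by construction. Leaving out 1 library in turn gave 4 to 7 members called, the 4 without Control replicate 2. That fit called 526 of 564 features tested, 82 of them lower. Over all features the counts ran from 469 of 501 (without DSS replicate 2) to 547 of 565 (without Control replicate 1). With 1 library left out, the other transport genes numbered 3 to 5 called, 2 to 4 of them lower. Without Control replicate 3 and DSS replicate 3 together, 409 of 476 features tested were called, 60 of them lower. Among them were 4 members (Car4, Slc26a3, Trpm6 and Slc51b) and 1 other transport gene, with 0 other transport genes lower. Slc4a4 (−0.85), Slc26a2 (−1.12) and Slc20a1 (−1.44) did not pass, with limma adjusted p of 0.0739, 0.0795 and 0.0708. Under the groups that the descriptions name, limma called 8 features, 4 lower and 4 higher, with 0 members and 0 other transport genes, 0 of them lower, and adjusted p of 0.572 to 0.61 for the members. At an unadjusted p under 0.05 those groups gave 54 features, 0 members and 1 other transport gene, and the fit without both libraries gave 0 other transport genes lower. The listed features separate the groups of the titles, so few calls under other groups do not tell which text is right. Over all features the count was 877 without the filter (708 higher), 375 with FPKM of at least 1 in 6 libraries (295 higher), where 912 and 376 features were tested, and 230 of 572 tested (113 higher) with libraries centred and Control and DSS alone in the fit, where the same fit without centring called 570 (455 higher). That centred fit called fewer of the marker lists' rises, as given with them.

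With a replicate block 7 members, 5 other transport genes and 568 features were called, so the block changed no member's call. The same-numbered libraries of Control and DSS had correlations of −0.0519, 0.0211 and 0.0794 in their deviations from the group means, so the numbers do not pair them. No comparison of members between BXD_H and DSS could be run under any setting, since no member is listed for both. Depth is least for Slc51b among the 7 members listed for Control and DSS, and for Fabp6 among the other transport genes tested.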
